A study of Saccharomyces cerevisiae with 3 samples.

Results

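During the second meiotic division, the spindle pole bodies of budding yeast change on their cytoplasmic face. The outer plaque that anchors astral microtubules in dividing cells is remodeled into the meiotic outer plaque, on which vesicles dock and fuse to form the prospore membrane, the double membrane that will enclose each spore nucleus. A protein coat, the leading edge, then rings the mouth of the growing membrane. The 10 genes described here were chosen by name for these roles, out of 6218 genes on the arrays, and all 10 were found there. *MPC54*, *SPO21* (also known as *MPC70*), *SPO74* and *ADY4* code for the meiotic outer plaque, *SSP1*, *ADY3* and *DON1* for the leading edge, and *SPO20* for the SNARE protein of sporulation, which acts in the fusion of vesicles into the prospore membrane. These are referred to below as the 8 sporulation genes. *CNM67* and *NUD1* code for plaque proteins that cells also use in mitosis: Cnm67 is the spacer that joins the central to the outer plaque, and Nud1 is the outer plaque scaffold of the mitotic exit network.

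The samples were diploid Δ*sum1* cells of SK1 (strain JPY214), which lack the repressor of mid-sporulation genes, Sum1. They were taken at 6 hours in SPM, a poor acetate medium that induces sporulation, and 20 and 40 minutes after part of that culture was moved to YPD, a rich medium with glucose. Each of these 3 samples was hybridized to 1 array of 2 colors, in Cy5, and all arrays shared 1 Cy3 reference, RNA of the SK1 wild-type diploid (NKY1551) growing in YPA, a rich acetate medium. The protocol text of the labels assigns the dyes in reverse, but the channel labels and the scanner headers were followed. Sample and reference thus differ in genotype, medium and stage at once, and these cannot be told apart in a ratio. A culture left in SPM for the same time was not analyzed here, so medium, time and slide cannot be told apart in a change either.

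A log2 ratio is the Cy5 over Cy3 signal of a spot after background subtraction, with the median of the array at 0, averaged over the 2 adjacent spots of a gene. Changes were taken by subtracting the 6 hour log2 ratio from that in YPD, so 20 and 40 minutes share the 6 hour array. Since each time point has 1 array, tests were not possible, and each error is the SD between the 2 spots, which leaves out cultures and slides. Over all genes this SD was 0.15, 0.17 and 0.19 at 6 hours, 20 minutes and 40 minutes, and 0.23 and 0.24 for the changes at 20 and 40 minutes. Signals under a floor of 656, 397 and 268 in Cy5 and of 690, 574 and 455 in Cy3 were set to it, so a ratio of a gene whose Cy3 lay under the floor is a lower bound. The mean signal of the spots that hold buffer only, which is higher, was tried as another floor, and normexp, a model-based background correction, in place of subtraction and a floor. The Cy5 signal fell from array to array, and the median Cy5 intensity of a gene was 2.74-fold lower at 40 minutes than at 6 hours before centering. Intensities of different genes depend on their spots and are not compared with each other. *SUM1* stood at -1.76, -1.37 and -1.64 on the 3 arrays, and the mid-sporulation activator gene *NDT80* at 5.80, 5.64 and 5.25. Of 12 haploid-specific and mating genes, which a diploid should not express, 6, 7 and 9 exceeded the reference by 2-fold or more. The share of all genes that did so was 22%, 28.6% and 27.1%. The highest of the 12 at 6 hours was *STE18*, at 4.14, 3.90 and 4.75 on the 3 arrays, followed by *NEJ1* at 3.76 and *STE4* at 3.53. The lowest at 6 hours was *MF(ALPHA)2* at -0.88. The summed Cy5 signal of the 12 was 66350, 54183 and 37443. At 40 minutes 4 of them were lower and 6 higher than at 6 hours by 1.5-fold, against 42.5% and 27.2% of all genes, with a median change of 0.30. The pheromone gene *MF(ALPHA)2* had both Cy5 spots under the floor at 6 hours and changed by 2.62 at 20 minutes, to a ratio of 2.12 at 40 minutes, *HO* changed by 2.49 and 2.45, *STE4* by -0.49 and -1.45 and *NEJ1* by -0.79 and -1.94. Their part in the values below was not tested.

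All 8 sporulation genes were far above the growing reference at 6 hours in SPM, with log2 ratios from 2.66 to 5.95 and a median of 4.66. On the same array 22% of 6090 measured genes exceeded the reference 2-fold. *CNM67*, listed as constitutive, stood with them at 4.44, whereas *NUD1* was at -0.31. The 8 genes did not move together in YPD. After 20 minutes the median of their changes was 0.01 and after 40 minutes -0.59, whereas over all genes measured it was -0.27 and -0.33. Which of these medians was lower at 20 minutes, that of the 8 genes or of all genes, depended on the setting. With the authors' deposited values it was -0.46 against -0.33, with loess -0.29 against -0.27 and with the first spot only -0.31 against -0.23. In the other settings that of the 8 genes was higher, such as -0.09 against -0.33 with normexp and -0.37 against -0.50 with the buffer mean as the floor. At 20 minutes 3 of the 8 were lower by 1.5-fold and 1 was higher, against 39.4% and 26.5% of 6140 genes. At 40 minutes 4 of the 8 were lower and 0 higher, against 42.5% and 27.2% of 6150 genes. The share lower was near that of all genes here. However, 6 of the 8 were lower with normexp, alone or with loess, against 42.0% and 41.8% of all genes. With the buffer mean as the floor 5 were lower, against 47.2%. By Cy5 alone 3 were lower and 2 higher, against 34.6% and 31.8% of all genes. With the second spot only 3 were lower and 1 higher, against 41.9% and 26.8%. All 8 still exceeded the reference 2-fold at both times in YPD, against 28.6% and 27.1% of all genes.

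**Figure D1:**
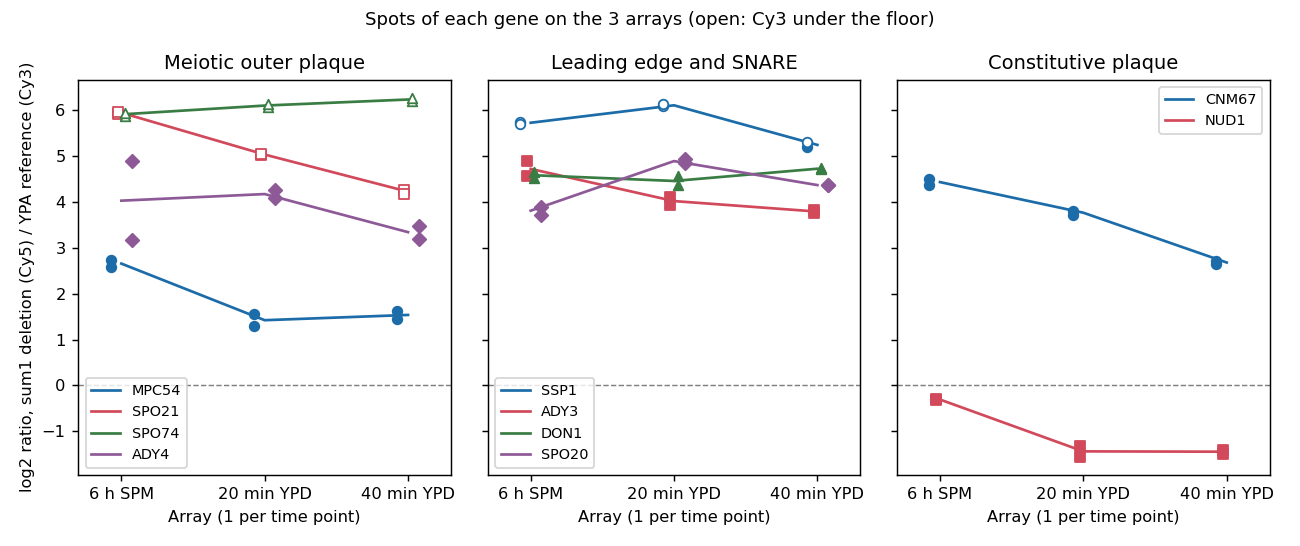
Log2 ratio (Δ*sum1* sample in Cy5 over YPA reference in Cy3) of both spots of each gene on the 3 arrays, with lines through the means and open symbols where Cy3 lay under the floor. The 8 sporulation genes and *CNM67* stay above 0 on all 3 arrays, from 1.42 to 6.24, *NUD1* stays below it, and the spots of *ADY4* at 6 hours lie apart.

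Among the meiotic outer plaque genes, *SPO21* was lower in YPD and *SPO74* was within 1.3-fold of its 6 hour level. Both code for plaque subunits and neither gave a Cy3 signal above the floor in any spot, so their ratios are lower bounds and their changes follow the Cy5 channel. The spots of *SPO21* (YOL091W) gave 5.93 and 5.97 at 6 hours, 5.03 and 5.04 at 20 minutes and 4.27 and 4.18 at 40 minutes. Each time point lay below the one before it with no overlap of the spots. Its Cy5 intensity was 40813, 14689 and 5067. This is a change of -0.91 ± 0.03 at 20 minutes and -1.72 ± 0.10 at 40 minutes. With normexp, with normexp and loess and with the buffer mean as the floor, the change at 40 minutes was -2.75, -2.65 and -2.46, so its size depends on how the dim Cy3 spots are treated while its direction was the same. The lower bound on its fold over the reference went from 61.8 to 18.7.

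*SPO74* (YGL170C), by contrast, gave 5.89 and 5.94 at 6 hours, 6.08 and 6.13 at 20 minutes and 6.20 and 6.28 at 40 minutes. The spots of the 3 arrays did not overlap and stood highest at 40 minutes, but its change of 0.19 and 0.32 was within 1.3-fold, the limit for stable expression, as it was for 23.4% and 20.1% of all genes. Its Cy5 intensity was 39818, 30824 and 20288, a fall of 1.96-fold that is smaller than the median of all genes. The sign of the *SPO74* change at 40 minutes turned with the setting. It was -0.78 with normexp, -0.84 with normexp and loess, -0.41 with the buffer mean as the floor and 0.44 in the Cy5 channel alone.

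*MPC54* (YOR177C), a further plaque subunit, had the lowest ratio of the 8 sporulation genes on all 3 arrays. Its spots gave 2.59 and 2.73 at 6 hours, 1.55 and 1.29 at 20 minutes and 1.45 and 1.62 at 40 minutes. The 6 hour spots lay above those of both YPD arrays, which overlapped each other. The change was -1.23 ± 0.28 at 20 minutes and -1.12 ± 0.02 at 40 minutes. Its mean Cy3 signal was 6731, 10955 and 5180, although the reference RNA was the same. Relative to the array median the Cy3 signal of *MPC54* was 0.91 higher at 20 minutes than at 6 hours, and the Cy5 channel alone gave a change of -0.18 at 20 minutes, under 1.5-fold, and of -0.78 at 40 minutes.

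*ADY4* (YLR227C), which codes for a plaque component that stabilizes the structure, could not be placed at 6 hours by the mean of its spots. Its spots on that array gave 4.89 and 3.17, a SD of 1.21, because their Cy3 signals were 1340 and 4238 while their Cy5 intensities were 37761 and 36396. The authors' deposited value for *ADY4* at 6 hours is 4.89, that of the first spot. The deposited values give a change of -0.76 at 20 minutes and -1.52 at 40 minutes, both past 1.5-fold. The spots lay close together in YPD, at 4.09 and 4.26 after 20 minutes and 3.20 and 3.49 after 40 minutes. The mean change of -0.69 at 40 minutes is past 1.5-fold, but it is -1.69 by the first spot and 0.31 by the second. From 20 to 40 minutes, where all 4 spots were close, *ADY4* was lower by 0.83 ± 0.08. Its Cy5 intensity was 37079, 20646 and 4631, a fall of 8.01-fold from 6 hours to 40 minutes before centering. Relative to the array median the fall in Cy5 was 3.06-fold.

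Of the 3 leading edge genes, 1 was lower by 1.5-fold at both times, where 39.4% and 42.5% of all genes were lower. By Cy5 alone 0 of the 3 were lower and 1 was higher at 40 minutes, against 34.6% and 31.8% of all genes. *DON1* (YDR273W), whose product coats the leading edge, gave spots at 4.52 and 4.65 at 6 hours, 4.36 and 4.56 at 20 minutes and 4.74 and 4.72 at 40 minutes. The spots of 6 hours and 20 minutes overlapped, and the changes of -0.13 ± 0.05 and 0.14 ± 0.11 were within 1.3-fold. Its Cy5 intensity was 52488, 41357 and 30152. In the Cy5 channel alone the change at 40 minutes was 0.61, just past 1.5-fold. With the buffer mean as the floor its change was -0.68 at 20 minutes, past 1.5-fold, and -0.52 at 40 minutes.

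*SSP1* (YHR184W), which codes for the leading edge component that recruits the other leading edge proteins and is removed when the prospore membrane closes, was lower at 40 than at 20 minutes in YPD. Its spots gave 5.75 and 5.71 at 6 hours, 6.09 and 6.13 at 20 minutes and 5.19 and 5.30 at 40 minutes, with no overlap between time points. The Cy3 signal lay under the floor in 5 of these 6 spots. The change was 0.38 ± 0.06 at 20 minutes and -0.48 ± 0.11 at 40 minutes, both short of 1.5-fold. At 40 minutes it was past that limit, at -1.33, -1.31 and -1.18, with normexp, with normexp and loess and with the buffer mean as the floor, and at 20 minutes it was 0.67 with normexp and loess. From 20 to 40 minutes it was lower by 0.86 ± 0.05, or 1.82-fold, as 12.3% of genes were by 1.5-fold between those arrays. *SPO21* and *ADY4* were the other sporulation genes past the limit between the YPD arrays, with -0.81 and -0.83.

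*ADY3* (YDL239C), which codes for a leading edge protein that brings Don1 to the ring and has *CNM67* as its paralog, was lower at both times. Its spots gave 4.56 and 4.89 at 6 hours, 4.11 and 3.94 at 20 minutes and 3.82 and 3.76 at 40 minutes. The time points did not overlap. The change was -0.70 ± 0.35 at 20 minutes, where the spots changed by -0.45 and -0.95, and -0.93 ± 0.27 at 40 minutes, where the Cy5 channel alone gave -0.52, under 1.5-fold.

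**Figure D2:**
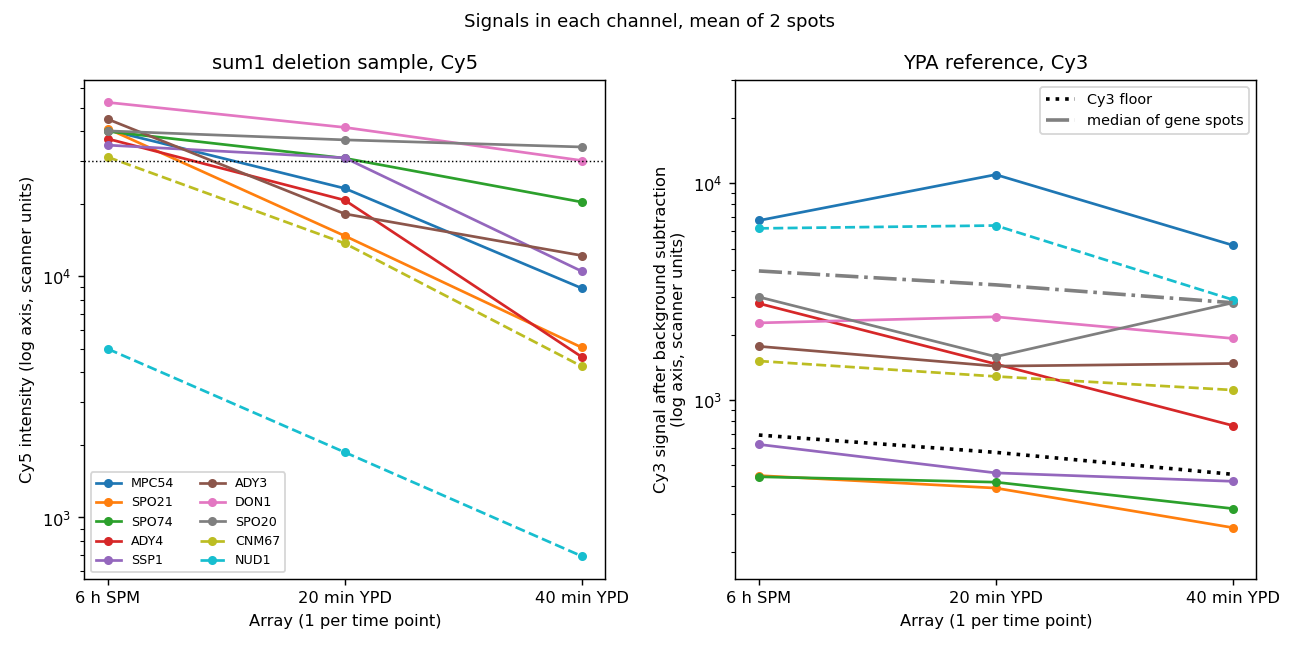
Mean Cy5 intensity of each gene (left; the dotted line marks 30000) and mean Cy3 signal after background subtraction (right; the dotted line is the Cy3 floor and the gray line the median of gene spots), on log axes in scanner units, for the 3 arrays. Cy5 intensity before centering fell in all 10 genes from the first to the last array, by 1.17-fold in *SPO20* and by 8.06-fold in *SPO21*. The median over all genes on the arrays fell by 2.74-fold. Relative to the array median, Cy5 rose in *SPO20*, *DON1* and *SPO74* and fell in the others. The Cy3 means of *SPO21*, *SPO74* and *SSP1* lay under the floor.

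*SPO20* (YMR017W) was the 1 sporulation gene past 1.5-fold upward at 20 minutes. Its spots gave 3.90 and 3.72 at 6 hours, 4.94 and 4.85 at 20 minutes and 4.37 and 4.37 at 40 minutes. Both YPD arrays lay above 6 hours without overlap, with changes of 1.08 ± 0.06 and 0.56 ± 0.12, the second short of 1.5-fold. The Cy5 intensity was nearly level at 39991, 36714 and 34311, while the same-RNA Cy3 signal was 2988, 1586 and 2808. In the Cy5 channel alone the order of the YPD arrays was the other way round, with a change of 0.52 at 20 minutes and 1.19 at 40 minutes. With the buffer mean as the floor the changes were 0.51 and -0.11. *SEC9*, the related SNARE gene of growing cells, was at -0.36 ± 0.14, 1.79 ± 0.12 and -0.13 ± 0.06, so its change was 2.15 at 20 minutes and 0.24 at 40 minutes.

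The Cy3 reference was the same RNA on all arrays and gives the spread of a repeated measurement. Over 5689 genes with no Cy3 spot under the floor, the centered log2 Cy3 signal had a median SD of 0.20 over the 3 arrays. It was 0.14 for *ADY3*, 0.16 for *DON1* and 0.03 for *CNM67*, but 0.50 for *MPC54*, 0.58 for *ADY4*, 0.56 for *SPO20* and 0.44 for *NUD1*. At 20 minutes the change of *MPC54* and of *SPO20* was past 1.5-fold in the ratio and short of it in the Cy5 channel alone.

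*CNM67* (YNL225C), although cells use it in mitosis too, did not hold a constant ratio. Its spots gave 4.50 and 4.37 at 6 hours, 3.72 and 3.81 at 20 minutes and 2.65 and 2.71 at 40 minutes, each time point below the one before with no overlap. It was 21.6-fold above the reference at 6 hours and 6.41-fold at 40 minutes. The change was -0.67 ± 0.15 at 20 minutes and -1.75 ± 0.13 at 40 minutes, which at 40 minutes was, with that of *SPO21*, the most negative of the 10 genes. The Cy5 channel alone gave -1.48 at 40 minutes. Its Cy5 intensity was 31146, 13673 and 4233, over a mean Cy3 signal of 1514, 1286 and 1113. Cy3 was above the floor in all spots, but these means were under those of the buffer spots, 2232, 1297 and 1537. With the buffer mean as the floor the change at 40 minutes was -2.33. Its paralog *ADY3* differed from it by 0.29 in log2 ratio at 6 hours, 0.25 at 20 minutes and 1.11 at 40 minutes.

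*NUD1* (YOR373W) was near the reference at 6 hours, with both spots at -0.31. It then gave -1.32 and -1.56 at 20 minutes and -1.49 and -1.41 at 40 minutes, which overlapped each other and lay below 6 hours. This is 1.24-fold below the reference at 6 hours and 2.71-fold and 2.73-fold below it in YPD, with a change of -1.13 ± 0.17 and -1.14 ± 0.06. Of all genes 25.8% and 27.1% were 2-fold or more below the reference on the YPD arrays. Its Cy5 intensity at 40 minutes was 692, above the floor of 268 but under the mean of the buffer spots, 1236. With that mean as the floor the change at 40 minutes was -0.83.

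Set against the plaque genes of mitosis, the 8 sporulation genes all lay above *NUD1* on each array, whereas *CNM67* lay among them at 6 hours and above *MPC54* on each array. Against *NUD1* their median ratio was 4.97 higher at 6 hours, 6.12 at 20 minutes and 5.75 at 40 minutes. Against *CNM67* it was 0.22 higher at 6 hours, 0.91 at 20 minutes and 1.62 at 40 minutes. Both *CNM67* and *NUD1* were lower by 1.5-fold at both times in YPD, though *CNM67* at 20 minutes was short of that limit with the second spot only (-0.56) and in Cy5 alone (-0.55). At 40 minutes the median change of the 8 genes was 0.86 above the mean change of the pair, but the difference was short of 1.5-fold with normexp (0.54), with normexp and loess (0.38) and with the buffer mean as the floor (0.24). In the main setting only *SPO21* of the 8, at -1.72, lay below *NUD1* in change at 40 minutes by more than the SD of spots. *SPO21* differed from *CNM67* by less than that SD. In other settings further genes lay below *NUD1*. *ADY4* was at -1.52 against -1.12 with the deposited values and -1.69 against -1.18 with the first spot only, but at 0.31 with the second. With the buffer mean as the floor *MPC54*, *ADY4*, *SSP1* and *ADY3* were all below *NUD1*, which was at -0.83.

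**Figure D3:**
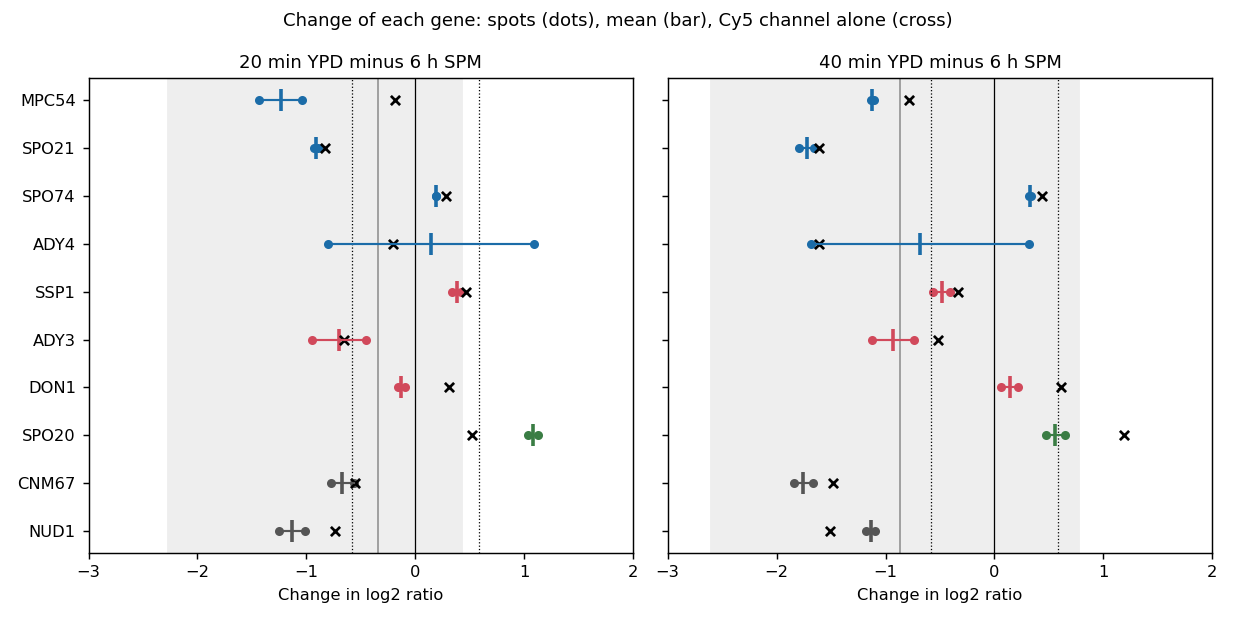
Change in log2 ratio at 20 minutes (left) and 40 minutes (right) in YPD from 6 hours in SPM, with dots for both spots, a bar for their mean and a cross for the Cy5 channel alone. Dotted lines mark 1.5-fold, and the shaded band and gray line give the 10th to 90th percentile and the median of the 453 genes whose 6 hour Cy5 intensity exceeded 30000. *SPO21* and *CNM67* changed most at 40 minutes, the dots of *ADY4* lie on both sides of 0, and the crosses of *MPC54* and *SPO20* lie apart from their dots.

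For comparison with genes of similar brightness or induction, 2 classes were taken. In the class of 453 genes with a 6 hour Cy5 intensity over 30000, to which all 8 sporulation genes belong, the median was -0.34 and -0.86 at 20 and 40 minutes, and 44.4% and 58.9% were lower by 1.5-fold. In the class of 1338 genes that exceeded the reference 2-fold at 6 hours, the median change was -0.68 and -0.95, and 53.4% and 63.8% were lower. Both classes were picked by high values on the 6 hour array, which is also subtracted in each change. This selection alone can lower their changes, by an amount that was not tested. The 8 genes, with 3 lower at 20 minutes and 4 at 40 minutes, are few, and no test was made. At this limit their count at 40 minutes was from 3 to 6 under other settings.

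In order of log2 ratio, *SPO21*, *SPO74* and *SSP1* led at 6 hours, followed by *ADY3*, *DON1*, *CNM67*, *ADY4*, *SPO20*, *MPC54* and *NUD1*. The 3 leading genes had a floored Cy3 signal, so their true order is not known. The gaps between *SPO21* and *SPO74* and along the run from *ADY3* to *SPO20* were not larger than the summed SD of the spots. At 20 minutes *SSP1* and *SPO74* led and did not differ beyond their spots, nor did *ADY4* and *ADY3*. At 40 minutes the order was *SPO74*, *SSP1*, *DON1*, *SPO20*, *SPO21*, *ADY3*, *ADY4*, *CNM67*, *MPC54* and *NUD1*, with each gap larger than the summed SD. *SPO21*, *SPO74* and at least 1 spot of *SSP1* had Cy3 under the floor on these arrays too, so their places are lower bounds.

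Most other genes of the spindle pole body were lower in YPD. Of 16 such genes, 14 were lower and 0 higher by 1.5-fold at 20 minutes, with a median change of -1.06, and 13 were lower and 0 higher at 40 minutes, with a median of -1.08, where 39.4% and 42.5% of all genes were lower. By Cy5 alone 9 of the 16 were lower and 1 was higher at 40 minutes, against 34.6% and 31.8% of all genes, with a median of -0.78. *MPS2*, which codes for a membrane anchor of the pole body, changed by -2.42 and -2.72. *SPC97*, a subunit of the γ-tubulin complex, changed by -1.89 and -2.42. *NDC1*, which codes for a membrane protein shared with nuclear pores, changed by -0.19 ± 0.43 and 0.36 ± 0.50, and *SFI1*, a gene of the half-bridge, by -0.41 and -0.50. At 6 hours 9 of the 16 exceeded the reference 2-fold, against 22% of all genes, but not all of them came near *CNM67* at 4.44. Those with the highest ratios were picked after their values were seen. They were *SPC29*, a gene of the central plaque, at 4.47, *BBP1*, whose product binds Mps2, at 4.24, and *KAR1* of the half-bridge at 4.15, a lower bound. *SPC72*, named for its role as the γ-tubulin receptor that the mitotic outer plaque carries, was at -0.17 ± 0.18 at 6 hours, close to *NUD1*. It changed by -0.72 ± 0.28 and -0.82 ± 0.60, the latter being -0.19 by Cy5 alone. Its Cy5 signal at 40 minutes, 441 after background subtraction, was under the mean of the buffer spots, 1236.

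Of 12 other genes of prospore membrane growth in sporulation, 11 exceeded the reference 2-fold at 6 hours, against 22% of all genes, with a median ratio of 3.14. At 20 minutes 4 were lower and 0 higher by 1.5-fold, against 39.4% and 26.5% of all genes, with a median change of -0.29. The share lower was not above that of all genes there. At 40 minutes 9 were lower and 2 higher, against 42.5% and 27.2% of all genes, with a median of -0.97. *SPO1*, which codes for a homolog of phospholipase B, changed by -2.57 and -3.04. *SPO77* changed by -0.97 and -2.92, with its Cy3 under the floor at 6 hours and 20 minutes and a change of -1.75 at 40 minutes in Cy5 alone. *AMA1*, which codes for the meiotic activator of the anaphase-promoting complex, changed by 0.32 ± 0.54 and 1.34 ± 0.20, but the Cy5 channel alone gave 0.07 at 40 minutes. *SPO19*, which codes for a GPI-anchored protein of the prospore membrane, changed by 0.30 and 0.95, with its Cy3 under the floor at 6 hours and 20 minutes. *YSW1*, the paralog of *SPO21*, was at 1.01, 1.10 and 1.13, and unlike that of *SPO21* its change of 0.10 ± 0.02 and 0.12 ± 0.07 was within 1.3-fold.

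Of 8 partners of Spo20 and of membrane supply that growing cells also use, 4 exceeded the reference 2-fold at 6 hours, against 22% of all genes. At 20 minutes in YPD 3 were lower and 1 higher, against 39.4% and 26.5% of all genes, with a median change of -0.30. The share lower was near that of all genes there. At 40 minutes 5 were lower and 0 higher, against 42.5% and 27.2% of all genes, with a median of -0.64. By Cy5 alone 3 were lower at 40 minutes, against 34.6% of all genes, and the median was -0.12. *SNC1*, a vesicle SNARE gene, changed by -1.62 and -2.53, and *VPS13*, a lipid transfer protein gene, by -1.20 and -1.24. *SEC1*, whose product binds assembled SNAREs, changed by -0.22 ± 0.58 and 0.03 ± 0.23, and *SEC9* is given above. *SSO1*, the plasma membrane syntaxin gene that sporulation needs and named for that role, was at 2.10 ± 0.07 at 6 hours and changed by 0.07 ± 0.14 and -0.68 ± 0.17, the latter being -0.08 by Cy5 alone.

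**Figure D4:**
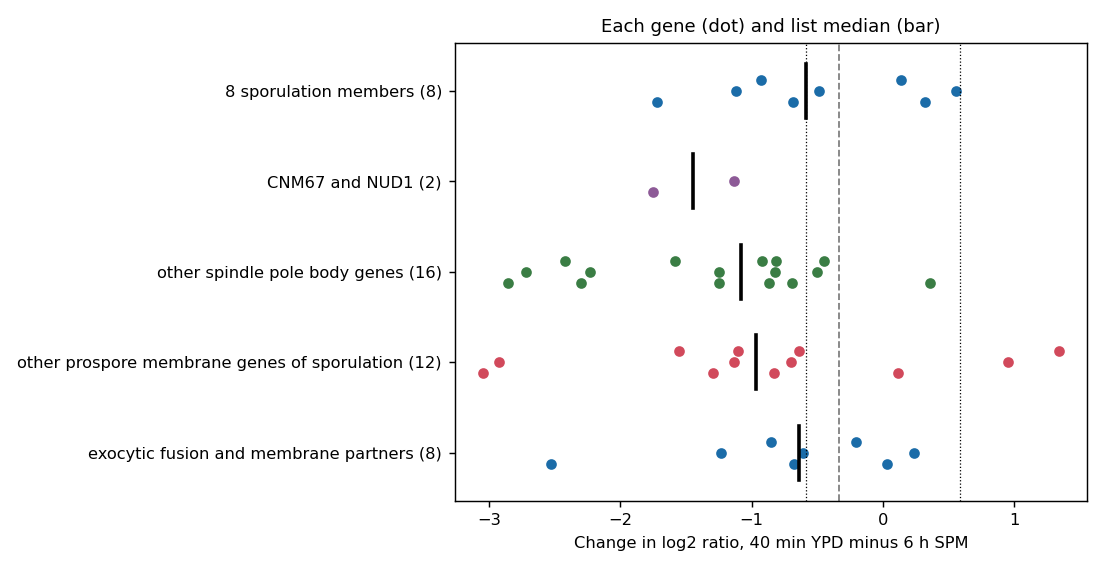
Change in log2 ratio at 40 minutes in YPD for each gene (dot) and the median (bar) of the 8 sporulation genes, *CNM67* with *NUD1*, and the 3 lists, with the number of genes in parentheses. Dotted lines mark 1.5-fold and the dashed line the median of all genes, -0.33; the 8 genes span -1.72 to 0.56 with a median of -0.59, against -1.08 in the other spindle pole body genes.

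The mean profile of the 8 sporulation genes was 4.68, 4.53 and 4.19 on the 3 arrays. Among 5128 other named genes, the 5 with the smallest Euclidean distance to it over the 3 log2 ratios were *ISC10* (distance 0.24), *CRR1* (0.25), *GIP1* (0.53), *RTT109* (0.56) and *PXL1* (0.61). *ISC10*, a gene needed for spore formation, was at 4.69, 4.62 and 4.41. *CRR1*, which codes for a putative glycosidase of the spore wall, was at 4.48, 4.41 and 4.08. *GIP1*, the gene of a meiotic regulatory subunit of protein phosphatase 1, was at 4.97, 4.94 and 4.34, with a spot SD of 0.76 at 6 hours. *RTT109*, a histone acetyltransferase gene, was at 5.04, 4.61 and 4.60, and *PXL1*, a paxillin-like gene of polarized growth whose Cy3 lay under the floor at 6 hours, was at 4.25, 4.13 and 4.03. Of the 8 genes themselves, *DON1* (0.55) and *ADY3* (0.64) lay nearest to their mean and *MPC54* (4.55) farthest, while *CNM67* lay at 1.70 and *NUD1* at 9.60. The distance is over 3 arrays and describes likeness of ratios on these arrays.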

How the data were processed

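The authors' deposited scanner files hold spot intensity and local background per channel, quantified with QuantArray, not yet background-subtracted, and the deposited flags for a signal-to-noise ratio under 3, used in 1 alternative. The authors' own log2 ratios, also deposited, had been background-subtracted, floored and median-centered, with bad spots omitted and duplicates averaged. Here background was subtracted, floors recovered from the deposited values were applied, and log2(Cy5/Cy3) was centered on the median over 12436 gene spots and averaged over both spots, with none omitted. After a constant offset per array the results equaled the deposited values within 0.001 for 97.9, 98.4 and 98.1% of genes, in part because the floors come from those values. The recovery of floors and of known changes was checked on simulated data. The median ratio of signal to background was between 96.7 and 288 in Cy5 and between 24.6 and 28.7 in Cy3, and precision is limited by having 3 arrays. There were no replicates, so counts past 1.5-fold (change) or 2-fold (level) replace tests, and genes under both floors on both arrays compared were left out of counts over all genes. Gene names come from RefSeq's R64 annotation, which 5663 of 6218 array genes matched. No coordinates or sequences are printed, because no build is named and no sequence table was used here. None of the 10 genes overlaps another gene of that annotation. Members and lists were chosen with earlier results of these data known. Named were all 10 genes, *SUM1* and *NDT80*, the paralogs or relatives *CNM67*, *YSW1* and *SEC9*, the 2 lowest and 2 highest genes by mean change of each list, the 5 nearest profiles, and genes marked in the text as named otherwise. Alternatives used limma 3.58.1 in R 4.3.3 (normexp with an offset of 50, loess), other floors, spots, channels, centering and fold limits. Other steps used Python 3.11.15 with numpy 2.4.6 and pandas 2.3.3.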

Additional observations from a re-analysis of the deposited data

How the results depend on the processing

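Results were recomputed under 12 settings that bear on values, and the count of lower genes under 2 other fold limits. The median log2 ratio of the sporulation genes at 6 hours, 4.66, became 4.86 with normexp, 4.89 with normexp and loess, 4.35 with the buffer mean as the floor, 4.81 with the deposited values, 3.23 in the Cy5 channel alone, which is no ratio to the reference, and 4.03 with spots under the floor or of low signal-to-noise left out, each of which leaves 5 of the 8 genes. Their median change at 20 minutes, 0.01, became -0.29 with loess, -0.28 with normexp and loess, -0.37 with the buffer mean as the floor, -0.46 with the deposited values and -0.31 with the first spot only. The median change at 40 minutes, -0.59, became -0.95 with normexp, -1.05 with normexp and loess, -1.34 with the buffer mean as the floor and -0.17 with the second spot only; the main value lies at the 1.5-fold limit, and it was short of it with loess (-0.46) and in Cy5 alone (-0.43). The difference from *CNM67* and *NUD1* at 40 minutes, 0.86, became 0.54, 0.38 and 0.24, all short of 1.5-fold, and 1.21 in the same order. The count of 4 genes lower at 40 minutes was 2 at a limit of 2-fold, 6 with normexp, and 3 in Cy5 alone or with the second spot only. Of the values of single genes past a limit, the change of *ADY4* at 40 minutes turned its sign, to 0.31 with the second spot only. Of those short of it, the sign also turned for some, such as *SPO74* at 40 minutes (given in the results) and *ADY4* at 20 minutes, 0.14 against -0.80 with the first spot and -0.76 with the deposited values. Over all genes 42.1% were lower and 26.9% higher at 40 minutes, against 47.2% and 14.9% with the buffer mean as the floor and 34.6% and 31.8% in the Cy5 channel alone. The median change of all genes at 40 minutes was -0.32 over all 6218 genes, -0.48 with that floor and -0.05 in Cy5 alone. The cause of these shifts was not tested. No paired analysis was possible because each time point has 1 array. Changes of *SPO21*, *SPO74* and *SSP1* are limited by their dim Cy3 spots and that of *NUD1* by its dim Cy5 spots.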

Other observations

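Of the genes beside the 10 on the chromosomes, looked up in the R64 annotation, *PFS1*, next to *SSP1* and itself a sporulation gene of prospore membrane formation, had the highest log2 ratio at 6 hours, 5.75, followed by *PEX9*, next to *SPO20*, at 2.53; both are named after their values were seen. *PFS1* changed by -0.56 and -1.02 in YPD, while *SSP1* stood at 5.73 and changed by 0.38 and -0.48. The spots of *ADY4* on the 6 hour array had like Cy5 intensities, 37761 and 36396, and Cy3 signals of 1340 and 4238, whereas its Cy3 signals on the other arrays were 1511 and 1422 at 20 minutes and 728 and 799 at 40 minutes.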
